A study of Mus musculus with 2 samples.

Results

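The 4 Hox clusters of the mouse were described in chromatin immunoprecipitation followed by sequencing (ChIP-seq) of POU5F1 (OCT4), a transcription factor with a POU domain. The cells were E14TG2a.4, a male embryonic stem cell line of strain 129/Ola, labelled as embryonic with an age of 3.5 days. There was 1 group, with 2 biological replicates and no treatment or second genotype, so nothing could be compared between conditions. A cluster was taken to run from the first to the last base of its listed Hox genes. All peaks inside a cluster or within 50 kb of either end were collected from the authors' lists, whatever their signal. The 38 genes listed were 10 of HoxA (Hoxa2 to Hoxa13), 10 of HoxB (Hoxb1 to Hoxb13), 9 of HoxC (Hoxc4 to Hoxc13) and 9 of HoxD (Hoxd1 to Hoxd13). On mm9 their windows held 8 of the 5515 peaks called on the whole series, 2 of 1330 for replicate 1 and 9 of 6324 for replicate 2. On mm10 they held 7 of 3994 peaks in the optimal list and 5 of 2676 in the conservative list, both selected by the irreproducible discovery rate (IDR). The total number of reads behind each list is unknown, and RNA was not measured, so neither the identity of the cells nor Hox transcription was checked.

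Hox genes encode homeodomain transcription factors that give cells their position along the head-to-tail axis. They lie in 4 clusters, and the order of the genes along a cluster follows the order in which they are expressed along the body, from the anterior group 1 to the posterior group 13. In embryonic stem cells the clusters are classic targets of Polycomb repression and carry active and repressive histone marks together. POU5F1 binds an octamer, often beside a SOX2 site in a SOX-POU composite element, and maintains pluripotency.

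The 6 stretches of mm9 sequence shown here were chosen because they hold every match to the octamer with up to 1 mismatch in the whole-series peaks of the clusters. All are written 5′ to 3′ on the plus strand. Capitals mark the octamer match on either strand (read as its reverse complement where it lies on the minus strand), except in the Hoxb1 line, where they mark the SOX-POU composite element and then the PBX-HOX site. The Hoxc5 and Hoxa11 lines are limited to 30 bases because they lie in untranslated regions (UTRs).
Hoxb1 promoter, chr11:96226842-96226961: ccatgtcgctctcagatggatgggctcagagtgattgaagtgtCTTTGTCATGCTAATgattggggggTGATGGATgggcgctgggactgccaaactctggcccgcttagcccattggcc
Hoxd13 to Hoxd12 interval, chr2:74510656-74510775: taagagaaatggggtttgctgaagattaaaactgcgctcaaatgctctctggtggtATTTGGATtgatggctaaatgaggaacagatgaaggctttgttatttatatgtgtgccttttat
Hoxd11 intron, chr2:74519686-74519805: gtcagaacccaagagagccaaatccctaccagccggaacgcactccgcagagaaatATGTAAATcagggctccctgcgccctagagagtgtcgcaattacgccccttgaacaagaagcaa
Hoxb13 upstream region, chr11:96052025-96052144: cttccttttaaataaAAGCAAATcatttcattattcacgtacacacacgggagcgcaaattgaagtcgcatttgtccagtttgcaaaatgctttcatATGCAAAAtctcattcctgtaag
Hoxc5 last exon, chr15:102846360-102846389: gctcattaattATTTGCATatgaaagaggg
Hoxa11 last exon, chr6:52193290-52193319: tcaagggcaaaATCTGCATattatttcaca
Only the Hoxc5 line holds the octamer ATGCAAAT without a mismatch, on the minus strand. The Hoxb1 composite match has 2 mismatches and is followed 10 bases later by the PBX-HOX match TGATGGAT. The Hoxb13 line holds 2 octamer matches with 1 mismatch each.

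Peaks were present at all 4 clusters in the whole-series list, with 1 at HoxA, 3 at HoxB, 2 at HoxC and 2 at HoxD. Of these 8 peaks, 6 lay between the first and the last gene of a cluster, and the other 2 lay just upstream of Hoxb13. Replicate 1 had 1 peak at HoxA and 1 at HoxB and none at HoxC or HoxD. Replicate 2 had 1, 4, 1 and 3 peaks at HoxA, HoxB, HoxC and HoxD. The optimal list had 2 at HoxA, which overlap each other at 1 site, 0 at HoxB, 2 at HoxC and 3 at HoxD. The conservative list had 2, 0, 1 and 2. HoxB was thus the cluster with the most peaks in the whole-series and replicate 2 lists. It was also the cluster with none in either mm10 IDR list. Its window was the longest, at 274 kb on mm9, and 2 of its peaks were the pair upstream of Hoxb13. Per Mb of window, replicate 2 had 14.6 peaks at HoxB and 15.2 at HoxD, and the whole-series list 10.95 and 10.2. Inside the clusters the whole-series density was lowest at HoxB, 5.75 per Mb against 10.1 to 20.7 in the others.

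**Figure D1:**
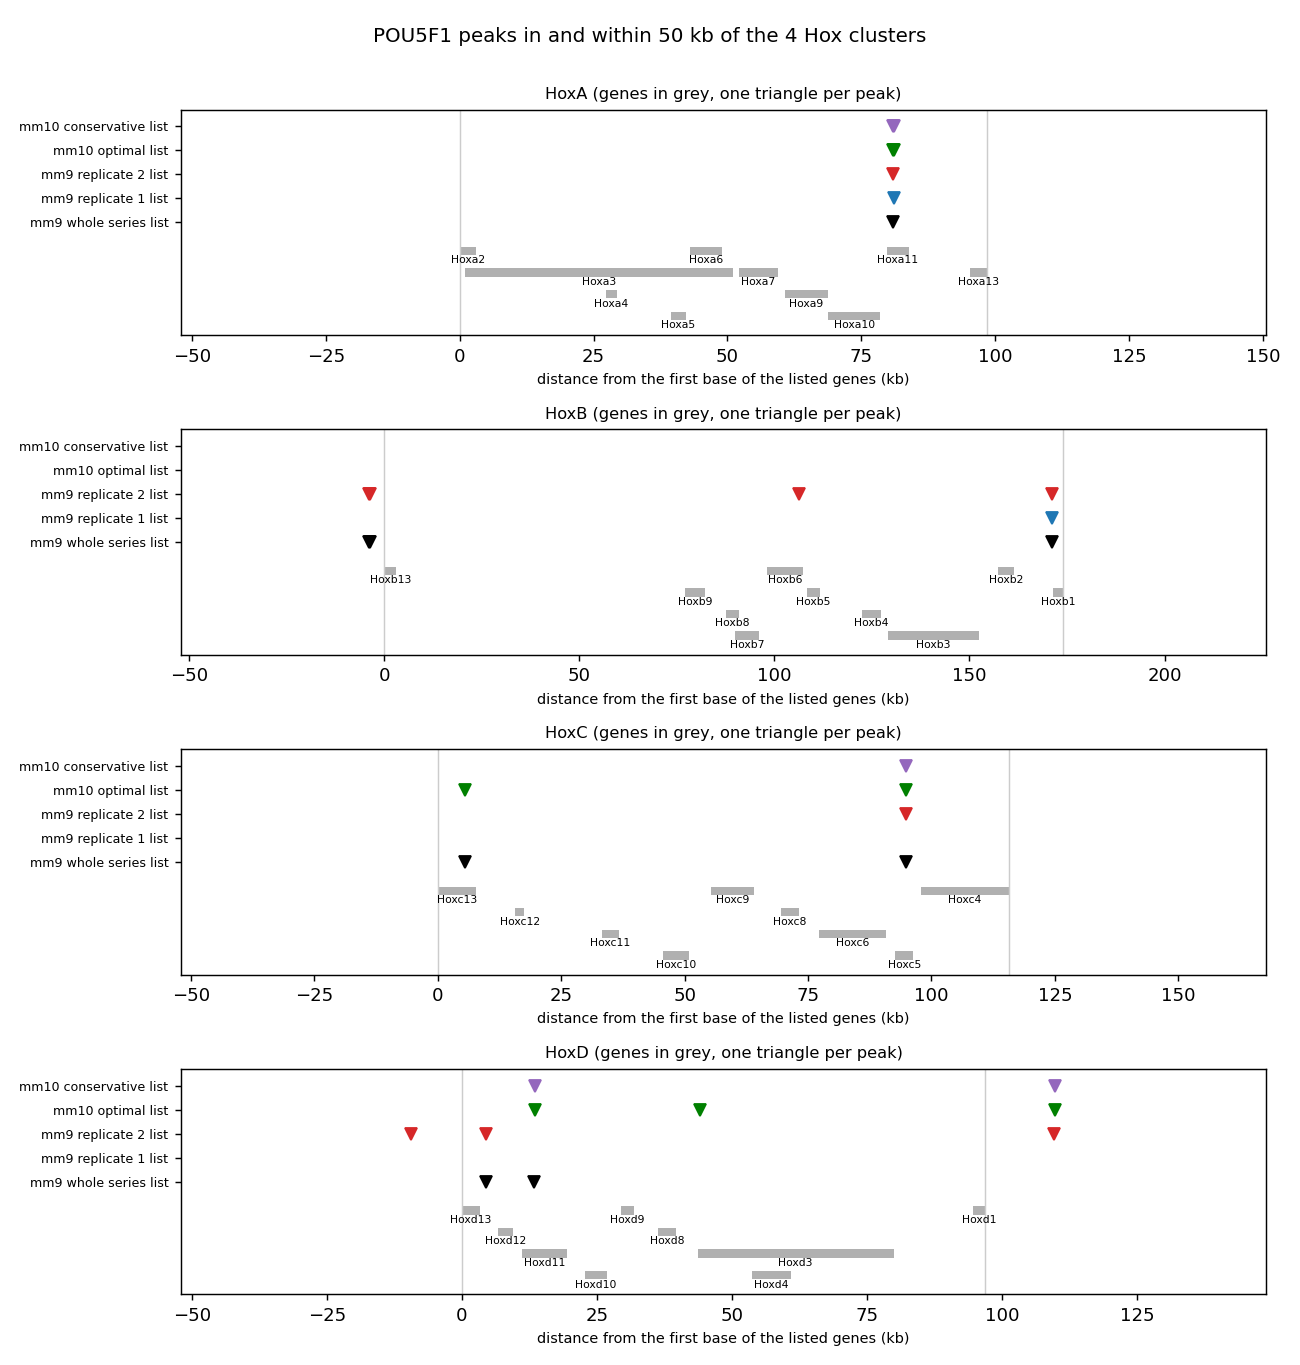
Peaks of 5 lists (coloured triangles, one row per list) along the 4 Hox clusters, with the Hox genes as grey bars and the distance from the first base of the listed genes in kb on the x axis (the mm10 peaks are placed by the mm10 cluster start, and the Hoxb13 pair and the 2 mm10 peaks at Hoxa11 overlap in the drawing). The Hoxa11 site is marked in all 5 rows, while the HoxB peaks are marked in the mm9 rows only.

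The density of peaks was 9.04 per Mb in the windows (95% exact Poisson interval 3.90 to 17.8, for counting error only) and 2.16 per Mb in the genome, a ratio of 4.19 (1.81 to 8.26). Against all sequence within 50 kb of a protein-coding transcription start site (TSS), where the density was 2.88 per Mb, the ratio was 3.14 (1.36 to 6.19). Replicate 1 gave a ratio to the genome of 4.35 with an interval of 0.526 to 15.7, which its 2 peaks leave wide and which includes 1. In replicate 2 the ratio was 4.11 (1.88 to 7.81). Inside the clusters alone the whole-series density was 12.4 per Mb (4.54 to 26.9). The intervals of the clusters overlapped: HoxA had 5.04 per Mb (0.128 to 28.1) and HoxC 9.27 per Mb (1.12 to 33.5).

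At HoxA the only site was in Hoxa11, an Abd-B type gene of limb and urogenital patterning, at chr6:52193126-52193496. It covers the end of the coding sequence and the start of the 3′ UTR in the last exon, 2483 bp from the Hoxa11 TSS and 2458 bp upstream of a TSS of Hoxa10, its anterior neighbour in the cluster. The nearest TSS of any gene, 1081 bp away, was that of the antisense transcript Hoxa11as. Its signal, a value deposited per peak without its scaling, was 5.58 in the whole-series list (rank 2471 of 5515). It was 6.22 in replicate 1 (rank 904 of 1330) and 8.31 in replicate 2 (rank 3163 of 6324). The Hoxa11 site was the one Hox site present in all 5 lists. In replicate 1, however, its deposited −log10 p was 5.24, where no listed peak is below 5, and its deposited q-value was 0.179. On mm10 its higher peak had signal 34.5 and rank 2311 in the optimal list.

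At HoxB the strongest mm9 peak covered the promoter of Hoxb1, the most anterior gene of the cluster, which patterns the hindbrain and responds to retinoic acid. The peak at chr11:96226594-96227090 was centred 224 bp upstream of the TSS. Its signal was 7.34 in the whole-series list (rank 1095), 6.22 in replicate 1 (rank 904) and 11.34 in replicate 2 (rank 1325), the highest of the Hox peaks in the whole-series list and tied with Hoxa11 in replicate 1. The whole-series −log10 p was 24.6. It was in neither mm10 IDR list.

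A pair of peaks lay upstream of Hoxb13, the most posterior gene of the cluster, known for its role in the prostate and tail end. Their centres were 3915 and 3529 bp from its TSS, at chr11:96051506-96051924 and chr11:96051977-96052225. The distal peak had signal 4.99 in the whole-series list and 8.31 in replicate 2, and the proximal peak 3.82 and 6.80. The whole-series −log10 p of the proximal peak was 5.55, where no listed peak is below 5. Neither peak of the pair was in replicate 1 or in a mm10 IDR list. The remaining HoxB site, in an intron of Hoxb6 at chr11:96161812-96161982, was called in replicate 2 only, with signal 6.80 and 1628 bp from a Hoxb6 TSS. Its deposited −log10 p was 5.23, where no listed peak is below 5, and its deposited q-value was 0.1075.

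At HoxC the strongest site lay in the last exon of Hoxc5, in the 3′ UTR, at chr15:102846038-102846574. It was 2060 bp from the Hoxc5 TSS and 965 bp from the start of Mir615, a microRNA hosted by Hoxc5. Its signal was 7.05 in the whole-series list (rank 1227) and 13.6 in replicate 2 (rank 757), with a −log10 p of 38.1 there, the highest of the Hox peaks in that list. Replicate 1 had no peak there. On mm10 its signal of 60.6 put it at rank 729 of the optimal and 723 of the conservative list, first among the Hox peaks of both.

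The other HoxC site was in the intron of Hoxc13, a gene of hair and nail formation, at chr15:102756858-102757117, 5453 bp from the TSS. It was in the whole-series list with signal 4.25 (rank 4846) and in neither mm9 replicate list. Its whole-series −log10 p was 5.665, where no listed peak is below 5. The optimal list had it at rank 3124 with signal 28.1, and the conservative list did not have it. Its sequence contained no CpG dinucleotide and no octamer match.

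At HoxD, 2 whole-series peaks lay at the posterior end. One was between Hoxd13 and Hoxd12, at chr2:74510611-74510918, 2222 bp upstream of Hoxd12, with signal 4.70 in the whole-series list (rank 3836) and 6.80 in replicate 2. It was in neither replicate 1 nor the IDR lists. The other, at chr2:74519553-74519920, lay in an intron of the long Hoxd11 transcript, 320 bp upstream of a second Hoxd11 TSS. The Hoxd11 site had signal 4.41 in the whole-series list (rank 4384) and was in neither mm9 replicate list, yet both IDR lists held it, at ranks 2332 and 1961 with signal 34.3. Hoxd11, Hoxd12 and Hoxd13 are posterior genes of limb and digit patterning.

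Another pair of HoxD peaks was called on mm9 in replicate 2 alone. The first, with signal 7.56, lay in an intron of Evx2, the homeobox gene next to Hoxd13, at chr2:74496719-74496953. The second, with signal 6.05, lay at chr2:74615940-74616130, 14998 bp past the TSS of Hoxd1, the anterior end of the cluster. Its deposited −log10 p was 5.23, where no listed peak is below 5, and its deposited q-value was 0.1067. Only the second was in the IDR lists, at rank 3150 of the optimal and 2361 of the conservative list. The optimal list added 1 site with no mm9 counterpart, 385 bp past the start of Hoxd3, at chr2:74712211-74712546 on mm10, with signal 26.8 and rank 3309.

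Of the 11 distinct mm9 sites, 2 were in all 3 mm9 lists (Hoxa11 and Hoxb1), both peaks of replicate 1 overlapping peaks of replicate 2. Over the genome, 1223 of 1330 replicate 1 peaks (92.0%) overlapped a replicate 2 peak. The list of replicate 1 was the shortest and had no peak at HoxC or HoxD, but its relaxed mm10 list had entries at sites of both. The relaxed mm10 lists, which hold 300000 entries of peaks and background for each replicate, placed each site by its distance from a sequence found once on both builds, with a tolerance of 150 bp. Hoxc5 ranked 4698 in replicate 1 and 444 in replicate 2, and Hoxd11 ranked 1191 and 5212.

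The replicates ordered the sites differently in these relaxed lists. Hoxa11 ranked 478 in replicate 1 and 11462 in replicate 2. The Hoxb6 site, called on mm9 in replicate 2 alone, ranked 4572 in replicate 1 and 14997 in replicate 2. Hoxb1 ranked 35674 and 8202, and 7327 in the pooled list. The Hoxc13 intron ranked 9814 and 9615, the nearest agreement among the sites. Hoxd3 ranked 9056 and 6428, and the site past Hoxd1 ranked 7457 and 4795. The Hoxd13 to Hoxd12 site had no entry in replicate 1 and ranked 4135 in replicate 2. The distal and proximal Hoxb13 peaks ranked 12462 and 55911 in replicate 2 but 144538 and 148471 in replicate 1, and Evx2 had no entry in replicate 1 and ranked 287380 in replicate 2. Entries this low in the lists are dense, at 244 to 433 per Mb in the replicates' Hox windows, so an entry at such a rank near a site is no sign of a peak.

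**Figure D2:**
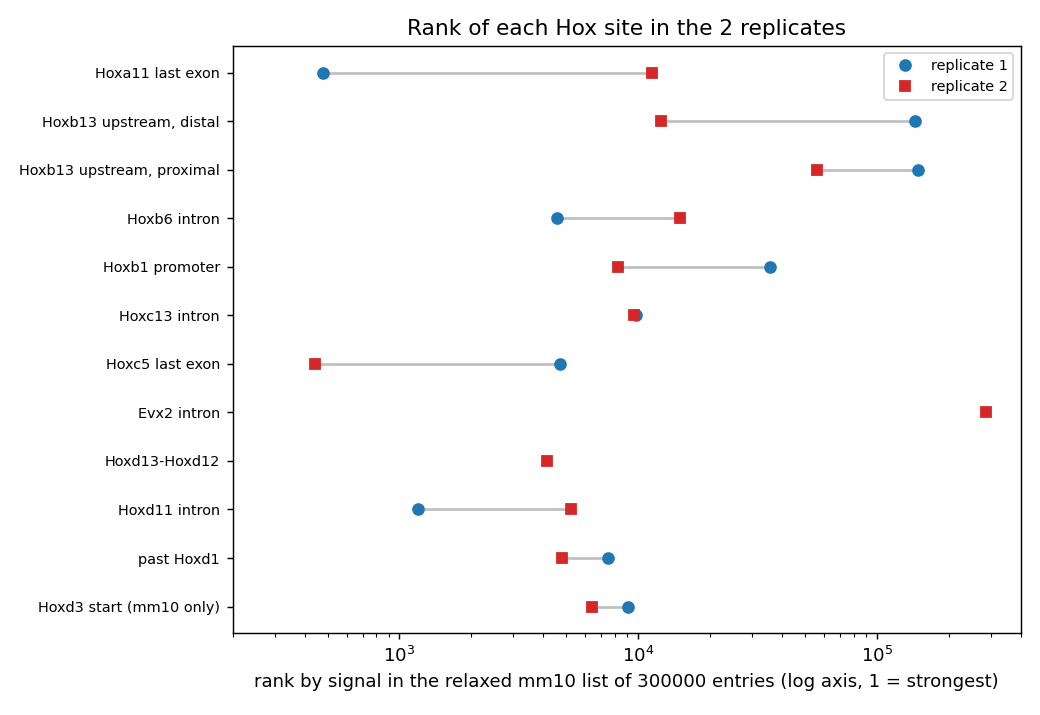
Rank by signal of 12 Hox sites in the relaxed mm10 list of replicate 1 (blue circles) and replicate 2 (red squares) on a log axis, where 1 is the strongest of 300000 entries and a missing marker means no entry within the tolerance. Hoxa11 sits at 478 and 11462 and Hoxc5 at 4698 and 444, so the replicates differ in opposite directions.

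Because neighbouring genes share peaks, counts of genes overstate the number of sites. A TSS of 30 of the 38 Hox genes lay within 50 kb of a whole-series peak centre, against 27.3% of all 22238 protein-coding genes, and these 30 genes shared 8 peaks. In the list of replicate 1 it was 12 of 38, against 8.15%, and in that of replicate 2 it was 33 of 38, against 30.1%. On mm10, 26 of 38 gene bodies were within 50 kb of an optimal peak (24% of RefSeq protein-coding genes) and 23 of a conservative peak (17.2%). All 9 HoxC genes were near a whole-series peak, with 8 of 10 at HoxA, 5 of 10 at HoxB and 8 of 9 at HoxD. Hoxa2 (59115 bp), Hoxa4 (51559 bp) and Hoxd1 (81301 bp) were not, and neither were Hoxb5, Hoxb6, Hoxb7, Hoxb8 and Hoxb9, in the middle of HoxB, at 62933 to 82803 bp. In replicate 2 the Hoxb6 peak, with a deposited −log10 p of only 5.23, put these 5 genes within 1628 to 29060 bp.

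Within 10 kb, 12 of 38 Hox genes had a whole-series peak, against 8.65% of protein-coding genes. They were Hoxa10, Hoxa11, Hoxb1, Hoxb13, Hoxc4, Hoxc5, Hoxc6, Hoxc13, Hoxd10, Hoxd11, Hoxd12 and Hoxd13. Of the 16 genes of the posterior groups 9 to 13, 8 were among them, and of the 22 genes of groups 1 to 8, 4 were. In shares this was 50% against 18.2% in the whole-series list, 37.5% (6 of 16) against 27.3% (6 of 22) in replicate 2, and 12.5% (2 of 16) against 4.55% (1 of 22) in replicate 1. No test was made of these shares, since neighbouring genes share peaks. The genes in replicate 1 were Hoxa10, Hoxa11 and Hoxb1. Counting only the gene with the nearest TSS of any kind to each whole-series peak left 5 Hox genes, since Hoxa11as and Mir615 were nearer at 2 sites and the Hoxb13 pair shared its gene.

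**Figure D3:**
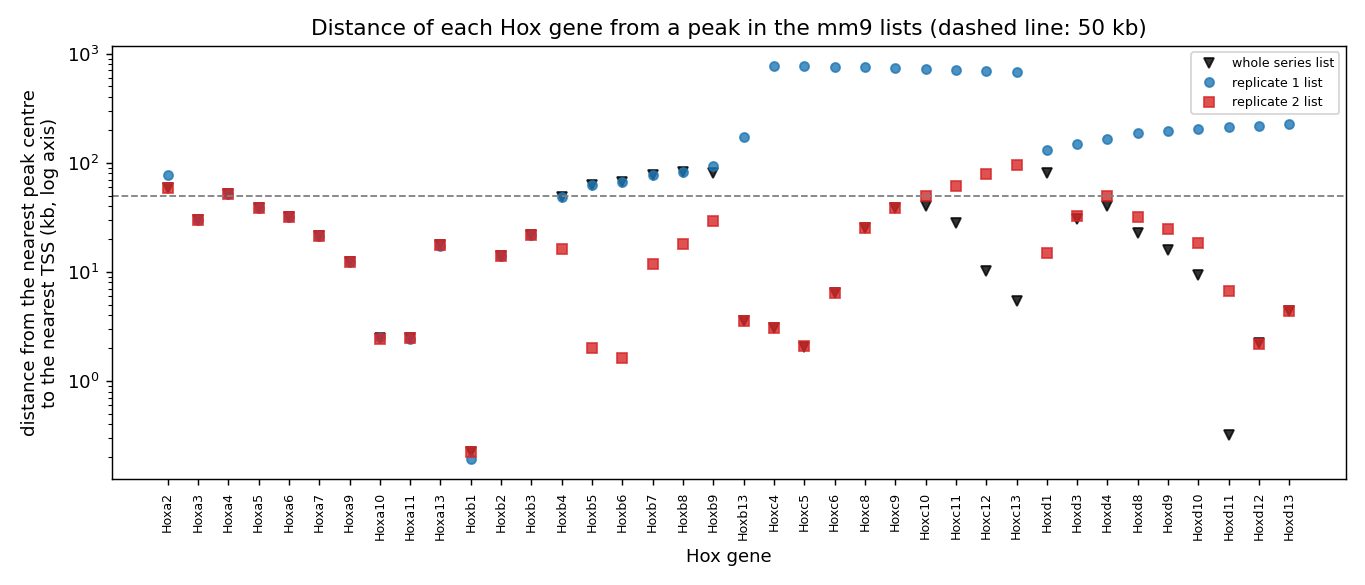
Distance in kb (log axis) from the nearest peak centre to the nearest TSS of each of the 38 Hox genes, in the whole-series list (black triangles), replicate 1 (blue circles) and replicate 2 (red squares), with a dashed line at 50 kb. Neighbouring genes rise and fall in slopes around shared peaks, and all 9 HoxC and all 9 HoxD genes of replicate 1 lie above 100 kb.

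Below the calling threshold the clusters held many weak entries. Entries of the relaxed list of replicate 1 lay inside HoxA, HoxB and HoxC at 386, 333 and 337 per Mb, above the 210, 240 and 190 per Mb of the 50 kb on each side, while HoxD had 237 inside and 250 outside. In replicate 2 the values inside were 660, 500.2, 544 and 516 per Mb and those outside 210, 300, 200 and 190. Windows of 1 gene with 50 kb on each side, mostly shorter than the Hox windows, had a median over 21887 RefSeq protein-coding genes of 159 per Mb in replicate 1 and 166 in replicate 2. Over the whole Hox windows, 2.29% (HoxA), 2.11% (HoxB), 5.81% (HoxC) and 11.5% (HoxD) of gene windows were at least as dense in replicate 1, and 0.196%, 0.210%, 0.626% and 1.66% in replicate 2. The gene windows include those of the 38 Hox genes themselves, and windows of neighbouring genes overlap. The 8 whole-series Hox peaks had a median GC of 52.4% against 46.0% for all peaks, with single peaks from 40.6% to 59.4%. Their median was 2.68 CpG per 100 bp against 0.958, with single peaks from 0 to 4.35. Whether base composition had a part in the density of weak entries was not tested.

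**Figure D4:**
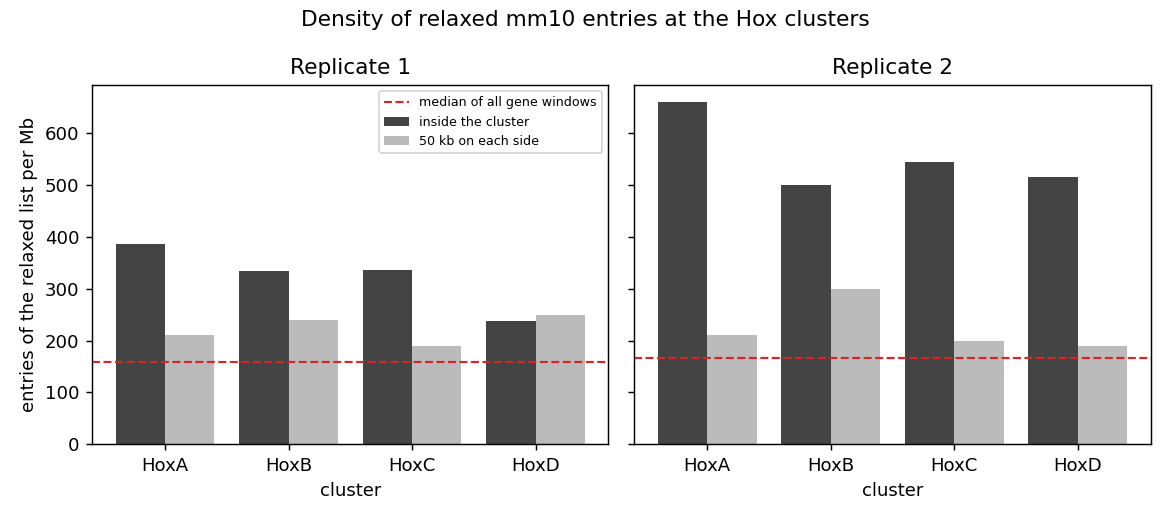
Entries of the relaxed mm10 lists per Mb inside each Hox cluster (dark bars) and in the 50 kb on each side (light bars), for replicate 1 (left) and replicate 2 (right), with the median over all gene windows as a dashed line. All bars lie above the median, and HoxD of replicate 1 is the one case where the inside bar (237) is lower than the flanking bar (250).

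The gene starts themselves had entries of mostly low rank. An entry lay within 1 kb of the RefSeq start of 22 of 38 Hox genes in replicate 1, against 38.5% of 18401 protein-coding genes, and of 30 of 38 in replicate 2, against 48.5%. Both replicates had one at 16 Hox genes (42.1%, against 23.7% of all genes), 7 of them in HoxA, 2 in HoxB, 2 in HoxC and 5 in HoxD. The Hox share was already higher in each replicate alone, at 57.9% and 78.9%, so the shared 42.1% is no measure of agreement between replicates. Neither had one at Hoxc4 or Hoxc10. The median best rank at Hox starts with an entry was 88818 in replicate 1 and 80233 in replicate 2, and over all gene starts with an entry it was 115146 and 94017. Among the first 10000 entries, replicate 1 had the starts of Hoxa5 (7406), Hoxc5 (6233) and Hoxd3 (9056), and replicate 2 those of Hoxb1 (8202), Hoxd3 (6428) and Hoxd11 (3566). These 3 of 38 genes were 7.89% in each replicate, against 2.83% of all genes in replicate 1 and 4.26% in replicate 2. Hoxd3, an anterior group gene, was thus the only Hox gene start in the first 10000 of both. Of the entries of replicate 1 in the Hox windows, 104 of 247 (42.1%) overlapped one of replicate 2, against 17.3% of all entries, in windows where entries are also denser.

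POU motifs were found in 2 of the 8 whole-series peaks, the Hoxb1 promoter (composite element) and the Hoxc5 exon (octamer), while 24.0% of all 5515 peaks held one. The search covered both strands of the whole peak for the exact octamer ATGCAAAT, the SOX-POU composite element with up to 2 mismatches, MORE (ATGCAT repeated without a gap) with up to 1 mismatch and PORE (ATTTGAA followed by the octamer) with up to 2, both bound by POU dimers. The octamer is part of PORE and of the composite element. The octamer was in 15.0% of all peaks, the composite element in 9.99%, MORE in 2.48% and PORE in 2.10%. With 1 mismatch allowed the octamer was in 6 of 8 Hox peaks and in 61.4% of all peaks. In windows of 201 bp around the centre the exact octamer was in 13.4% of all peaks and the composite element in 9.30%. The 2 Hox peaks with a POU motif were also the 2 of highest whole-series signal, 7.34 and 7.05, and the other 6 had 3.82 to 5.58, at or below the median of 5.58 for all peaks.

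Other motifs linked to Hox regulation were also searched. The PBX-HOX site TGATNNAT, bound by Hox proteins with their PBX partners, was in the Hoxb1 promoter peak and in 14.3% of all peaks. A CTCF core, the insulator motif that marks borders within Hox clusters, was found with 1 mismatch in the Hoxd13 to Hoxd12 peak, overlapping no octamer match, and in 4.61% of all peaks. Retinoic acid response elements with a spacing of 2 or 5 bases were in none of the 8 peaks and in 0.453% and 0.163% of all peaks. A missing match says only that these letters are not in the peak.

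A list of 36 genes of Hox regulation and Hox cofactors also held related homeobox genes, such as Gsx2 and Evx2. Its shares thus do not describe regulators and cofactors alone. Of the 36 genes, 35 were found in the annotation. Of these, 20 (57.1%) had a whole-series peak within 50 kb of a TSS, against the 27.3% above, and these 20 shared 19 strongest peaks. It was 11 in replicate 1 and 18 in replicate 2, against 8.15% and 30.1%. Among the 3 Cdx genes, caudal factors that activate posterior Hox genes, all were near a whole-series peak and 2 near a replicate 1 peak. Cdx4 had signal 12.04 in the whole-series list, 8.71 in replicate 1 and 19.65 in replicate 2. Its whole-series peak was 20543 bp past the TSS and nearest to another gene. Gsx2, a ParaHox gene, had the highest signals of the list, 14.39, 12.44 and 22.67 in the same order, with the whole-series peak 9704 bp past its TSS. In the retinoic acid pathway, 3 of 6 receptor genes (Rarg, Rxra and Rxrg) were near a whole-series peak. For Rara, Rarb and Rxrb the nearest was 75897 to 840736 bp away. In replicate 1 only 1 of the 6 was near a peak (Rarg), and in replicate 2 it was 2 (Rarg and Rxra). The whole-series peak near Rxrg had signal 3.23 and rank 5493 of 5515. Rarg had a peak 286 bp from its TSS with signals 11.45, 8.71 and 18.89, and Aldh1a2, which makes retinoic acid, one of 9.28, 9.95 and 14.09. None of the 3 Cyp26 genes, which degrade it, was near a peak, the nearest whole-series peaks being 180246 to 451097 bp away.

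Cofactors were divided. Pbx3 had signals of 10.28, 8.71 and 13.6, and Pknox2, a relative of the Meis genes, 7.93, 6.22 and 12.09, while Pbx2 and Pbx4 had their nearest whole-series peaks 250443 and 167718 bp away and Meis1 at 55400 bp. Zfp503, a zinc finger gene, had 8.22, 6.84 and 13.6. Evx2, also in the list, owes its count to the Hoxd13 to Hoxd12 peak.

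The windows' edge left out few peaks. The nearest whole-series peak outside was 55.9 kb from HoxA, with signal 6.75, and the next were 97.8 kb from HoxC and 128 kb from HoxD. In that list the farthest peaks inside a window were the Hoxb13 pair, and in replicate 2 the one past Hoxd1.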

How the data were processed

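The labels give 1 group of 2 biological replicates. The 38 genes, the lists and the windows were chosen with earlier results of these data known. The aligner, the peak caller, the IDR threshold and the scaling of the signal are not given in the sources used here. The authors deposited a signal per peak, which was compared only within a list or as ranks. The deposited mm9 lists also hold a −log10 p-value, none below 5, and a q-value, and the mm10 lists deposited by the authors a score. Relaxed mm10 lists were deposited for each replicate and for both pooled. The relaxed list of replicate 1 was derived from 1 more undescribed input file than that of replicate 2.

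Gene positions came from GENCODE M1 on NCBIM37 (mm9) and from RefSeq on GRCm38 (mm10). All 38 genes matched both. Coordinates were not converted. Sites were matched across builds by their distance from 1 of 52 RefSeq promoter or microRNA sequences found once in the mm9 chromosome. Motifs were searched in mm9 sequence with pysam 0.24.0, and intervals came from scipy 1.17.1. The scripts were tested on simulated data. With 1 group no test was made, and members, which share peaks, are not replicates. Every gene with a peak within 50 kb in an mm9 list was named, with the nearest gene of each peak, cluster ends and up to 8 regulators of highest signal, of which some are not reported here. Cyp26 genes, Rara, Rarb, Rxra, Rxrb, Rxrg, Pbx2, Pbx4 and Meis1 were named after their values were seen. P-values deposited with peaks were used as filters only. Alternatives were other windows, lists, thresholds and motif settings, and some were added after seeing the data.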

Additional observations from a re-analysis of the deposited data

How the results depend on the processing

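The count of 8 window peaks was 2 without replicate 2 and 9 without replicate 1, 5 in the conservative list and 4 at a deposited −log10 p of at least 10. The 6 peaks inside the clusters became 2 without replicate 2 and 5 without replicate 1, and 3 at that threshold. The 30 genes near a peak became 12 within 10 kb, 5 with the nearest TSS only, 19 at that threshold, and 12 to 33 when a replicate was left out. Of the 2 replicate 1 peaks, 1 overlapped replicate 2 when that list was cut to equal length. The 2 peaks with a POU motif became 6 with 1 octamer mismatch and ranged from 1 to 2 without a replicate. Without a replicate, the 20 genes of the regulator list near a peak ranged from 11 to 18 and the density ratio of 4.19 from 4.11 to 4.35. The ratio was 5.74 inside the clusters and 3.14 against sequence near a TSS. Over all results, 19 alternatives left a count within 1.5 times its main value, or the density ratio within its counting interval, and 13 moved a count by more. Each alternative without a replicate is the other replicate's own list. Settings for peaks inside the clusters and the replicate settings for motifs and regulators were chosen after seeing the data. No paired analysis was possible because there is 1 group. The unknown depth limits all counts.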

Other observations

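Of the listed non-coding genes of the clusters, Mir615 was the one within 10 kb of a whole-series peak. Mir196b and Hottip lay 13147 and 19458 bp from the Hoxa11 peak, and Mir10a, Mir10b, Mir196a-2 and Mir196a-1 were 42.5 to 74.4 kb from a whole-series peak. The strongest peak in the HoxD neighbourhood was outside the window, 128 kb past Hoxd1 and nearest to Gm14427, with signal 14.98 in the whole-series list, 12.44 in replicate 1, 24.94 in replicate 2 and 158.6 in the optimal list.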
